A study of Mus musculus with 6 samples.

Results

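Receptors for neurotrophins and for the GDNF family of ligands were examined in mouse dorsal root ganglia, which hold the cell bodies of the sensory neurons of the trunk and limbs. The 9 receptor genes, found by gene name among the 54532 genes of the count table, were Ntrk2, Ntrk3, Ngfr, Sort1, Ret, Gfra1, Gfra2, Gfra3 and Gfra4. Bulk RNA sequencing covered 3 libraries from Ash1l+/- mice and 3 from wild-type littermates, named here WT and Ash1l+/- replicates 1 to 3. The labels give no age, sex, strain background or allele structure, and do not say whether a library came from 1 animal or from pooled ganglia, so p-values measure the spread between these samples only, which may be technical.

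Neurotrophins are secreted proteins that keep sensory neurons alive during development and tune them in the adult. They act through Trk receptor tyrosine kinases and through p75, a receptor of the tumour necrosis factor receptor superfamily. Ligands of the GDNF family bind a GPI-anchored co-receptor, GFRα, and the complex then activates the tyrosine kinase Ret. Because the receptors are divided among classes of sensory neuron, they serve as class markers in this tissue.

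Total counts ranged from 17209294 to 20545722 per library, and the 9 receptor genes had 304 to 20112 reads each in any one library. WT replicate 2 stood apart: compared pairwise over genes, its counts gave a chi-square per degree of freedom of 306 to 375 against every other library, where the remaining pairs gave 3.71 to 24.8. Its skeletal muscle markers (6 of 6 in the table) summed to 31.5 CPM (reads relative to library size, scaled by the trimmed mean of M-values, TMM), where no other library exceeded 3.32, and its erythrocyte markers (5 of 5) to 628 against 31.5 to 101. All 11 sensory neuron markers had reads in every library, but they summed to 25515 CPM in WT replicate 2, against 11888 to 12472 elsewhere. Uchl1 alone was at 14227 CPM there, against 2258 to 2850. At the median, these markers differed in WT replicate 2 from the mean of WT replicates 1 and 3 by a log2 of -0.35. Among 6 central nervous system markers, Neurod6, of cortical neurons, was at 0 throughout. Olig1 and Mog, of central oligodendrocytes, were at 0.366 CPM or less. Gad1 and Gfap reached 0.889 and 2.68 CPM, while Slc17a7 was at 150 to 252 CPM. Ash1l itself, the targeted gene, was at no lower a level in Ash1l+/- libraries, at 66.5, 66.5 and 68.9 CPM against 60.9, 30.9 and 54.4 in wild types, so these counts do not check the labels. Tests are therefore given with all 6 libraries and with the 5 that leave out WT replicate 2. Fold changes compare Ash1l+/- with WT, and a gene was called at an adjusted p below 0.05 in edgeR's quasi-likelihood test over all genes.

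With all 6 libraries none of the 9 receptor genes passed the threshold. edgeR, DESeq2 and limma-voom each called 0, and 1 gene, Gfra4, had an unadjusted p below 0.05 in edgeR. Over all 16032 genes edgeR called 0%, and 10.6% had an unadjusted p below 0.05. Without WT replicate 2, 5 of the 9 were called: Ntrk3 and Gfra3 rose, Ngfr, Gfra2 and Gfra4 fell, and Ntrk2, Sort1, Ret and Gfra1 did not pass. The share of all 16395 genes called in these 5 libraries was 19.8%, with 9.39% higher and 10.4% lower, and it was 28.2% among the 10001 genes with a mean of at least 10 CPM. The median log2 fold change of the 9 receptors was 0.07, beside 0.0018 over all genes tested. In bulk tissue, fewer cells of a class and less RNA per cell cannot be told apart.

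Since GC content and gene length can bear on read counts in a library, each library's trend along both was estimated, and the test was repeated with the trends removed. The receptors differ widely in both. The GC share of the longest transcript placed Ntrk3 at the 19.0 percentile of tested genes and Ngfr, Gfra3 and Gfra4 at the 92.3, 87.5 and 92.8 percentiles. With the trends removed, 1 of the 9 was called in the 5 libraries, Gfra3, which rose, against 7.16% of all genes (2.74% higher and 4.42% lower), and 0 were called with 6. The plot of fold changes sets these 3 analyses side by side.

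**Figure D1:**
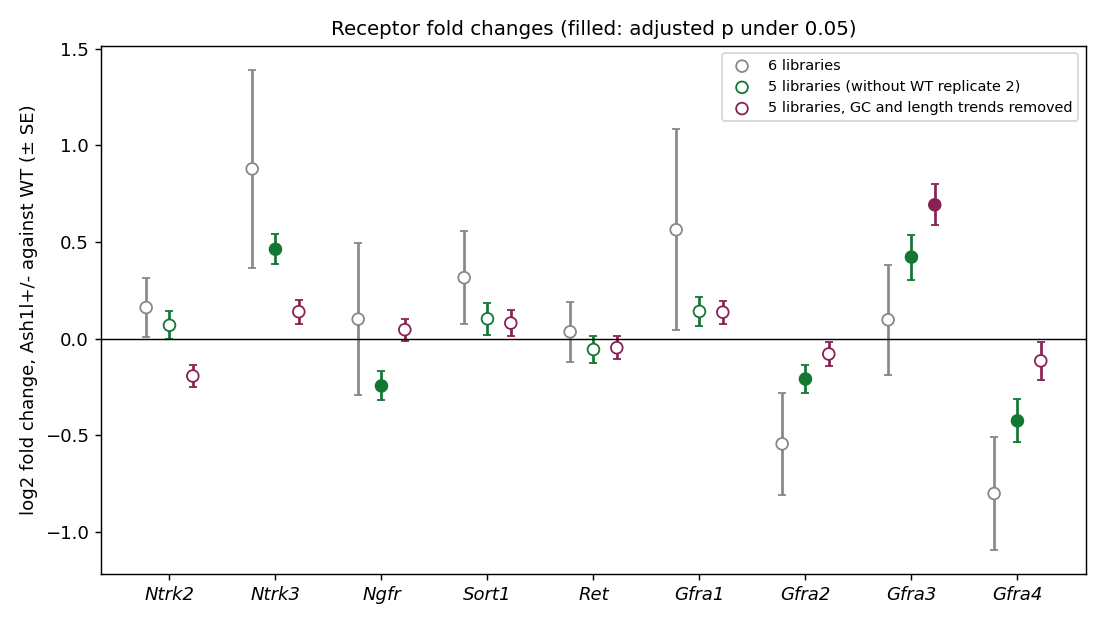
Log2 fold change (± SE) of each receptor gene in Ash1l+/- against WT with 6 libraries, with 5 libraries, and with 5 libraries after removal of GC and length trends; filled points had an adjusted p below 0.05. With 6 libraries all points are open; Ntrk3, Ngfr, Gfra2, Gfra3 and Gfra4 are filled in the 5, and Gfra3 is the one filled point after the trends are removed.

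Ntrk3 encodes TrkC, the receptor for neurotrophin-3, which marks proprioceptors and large mechanoreceptive neurons. The gene lies on chromosome 7 from 78175959 to 78738012 on the minus strand of GRCm38. It was at 364, 351 and 373 CPM in Ash1l+/- replicates 1, 2 and 3, with wild-type values of 245, 64.4 and 282 in the same order. All Ash1l+/- libraries lay above all wild types, and WT replicate 2 was 4.09 times below the mean of the other wild types. Its log2 fold change stood at 0.88 (SE 0.51, adjusted p = 0.400) with 6 libraries and 0.46 (SE 0.08, adjusted p = 6.09e-04) with 5, where the Ash1l+/- mean was 1.38 times that of WT replicates 1 and 3. In the 5 libraries Ntrk3 remained called when any further library was left out, with a log2 fold change from 0.36 without WT replicate 1 to 0.56 without WT replicate 3. Removing GC and length trends took it to 0.14 (SE 0.06, adjusted p = 0.201). The union of Ntrk3 exons, 30170 bases, is longer than in 99.9% of tested genes, beyond the range over which the length trend was followed. Markers of large myelinated neurons (9 of 10 in the table) were split. Nefh, Spp1 and Cntnap2 were above WT replicates 1 and 3 in every Ash1l+/- library, Necab2 was below, and the others overlapped. Set against the mean of WT replicates 1 and 3, the median log2 difference of these markers was 0.12, -0.06 and -0.01 for Ash1l+/- replicates 1, 2 and 3. Ntrk3 stood at 0.47, 0.42 and 0.50. The markers summed to 3868 to 4268 CPM in Ash1l+/- and to 3746 and 3570 in WT replicates 1 and 3. The part of this class in the Ntrk3 result was not tested.

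Ntrk2 encodes TrkB, the receptor for BDNF and neurotrophin-4, found on thinly myelinated touch-sensing neurons and, in its truncated form, on glia. The gene (chromosome 13, 58806569 to 59133970, plus strand) has 10 annotated transcripts, 7 of them protein-coding in GENCODE M21, and counts per gene do not separate the kinase form from the truncated one. Outside WT replicate 2 its level was nearly even, at 213, 219 and 213 CPM in Ash1l+/- and 198, 166 and 212 in WT. The Ash1l+/- libraries lay above the wild types by a margin smaller than the spread between wild types. Log2 fold changes were 0.16 (SE 0.15, adjusted p = 0.547) with 6 libraries and 0.07 (SE 0.07, adjusted p = 0.550) with 5. The direction turned with GC and length trends removed, to -0.19 (SE 0.06, adjusted p = 0.0521) in the 5 libraries. At 19292 bases Ntrk2 is longer than 99.2% of tested genes, so it too lies beyond the range over which the length trend was followed.

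Within each library the number of Ntrk2 reads per Ntrk3 read does not depend on how libraries are scaled. It was 0.584, 0.624 and 0.571 in Ash1l+/- replicates 1 to 3 and 0.807, 2.58 and 0.753 in WT replicates 1 to 3. Every Ash1l+/- library was below every wild type. The mean log2 ratio differed by -0.97 with 6 libraries and by -0.40 with 5. A two-sided exact permutation test gave p = 0.1 for 3 libraries against 3 and p = 0.2 for 3 against 2, the smallest each design can give.

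Ngfr encodes p75, which binds all neurotrophins and is carried by many sensory neurons and by Schwann and satellite cells (chromosome 11, 95568818 to 95587735, minus strand). It was at 708, 637 and 646 CPM in Ash1l+/- replicates 1 to 3 and at 821, 281 and 755 in WT replicates 1 to 3. WT replicates 1 and 3 were the highest and WT replicate 2 the lowest of the 6, so the direction turned on that library. With 6 libraries the log2 change came to 0.10 (SE 0.40, adjusted p = 0.880) and with 5 to -0.25 (SE 0.07, adjusted p = 0.0261), and the call was lost without WT replicate 1 (adjusted p = 0.268), Ash1l+/- replicate 2 (0.134) or Ash1l+/- replicate 3 (0.104). With GC and length trends removed, the 5 libraries gave 0.05 (SE 0.06, adjusted p = 0.700). Markers of myelinating Schwann cells (7 of 7) were lower as well in these libraries, with median log2 differences of -0.04, -0.32 and -0.15 in Ash1l+/- replicates 1, 2 and 3 beside -0.15, -0.31 and -0.29 for Ngfr, and sums of 3928 to 4665 CPM against 4930 and 4749 in WT replicates 1 and 3. Satellite glia markers (6 of 6) had median differences of 0.22, 0.18 and 0.21. Their sums were 4333, 3611 and 3775 CPM in Ash1l+/- replicates 1 to 3, beside 4222 and 4101 in WT replicates 1 and 3. Most of each sum was Apoe, at 2954, 2255 and 2385 CPM in Ash1l+/- and 2937 and 2801 in those wild types. The part of either cell type in the Ngfr result was not tested.

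Sort1 encodes sortilin, a sorting receptor that joins p75 in binding the precursor forms of neurotrophins (chromosome 3, 108284082 to 108361511, plus strand). Its levels were 95.1, 84.1 and 84.0 CPM in Ash1l+/- and 83.8, 47.7 and 79.9 in WT. Apart from WT replicate 2, these lay close together. The log2 fold changes of 0.32 (SE 0.24, adjusted p = 0.471) with 6 libraries and 0.10 (SE 0.08, adjusted p = 0.410) with 5 did not pass. There were 7.45, 7.58 and 7.69 Ngfr reads per Sort1 read in Ash1l+/- and 9.80, 5.90 and 9.44 in WT, so the groups overlapped through WT replicate 2. The difference of the mean log2 ratio was -0.11 with 6 libraries (exact permutation p = 0.8) and -0.35 with 5 (exact permutation p = 0.2).

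**Figure D2:**
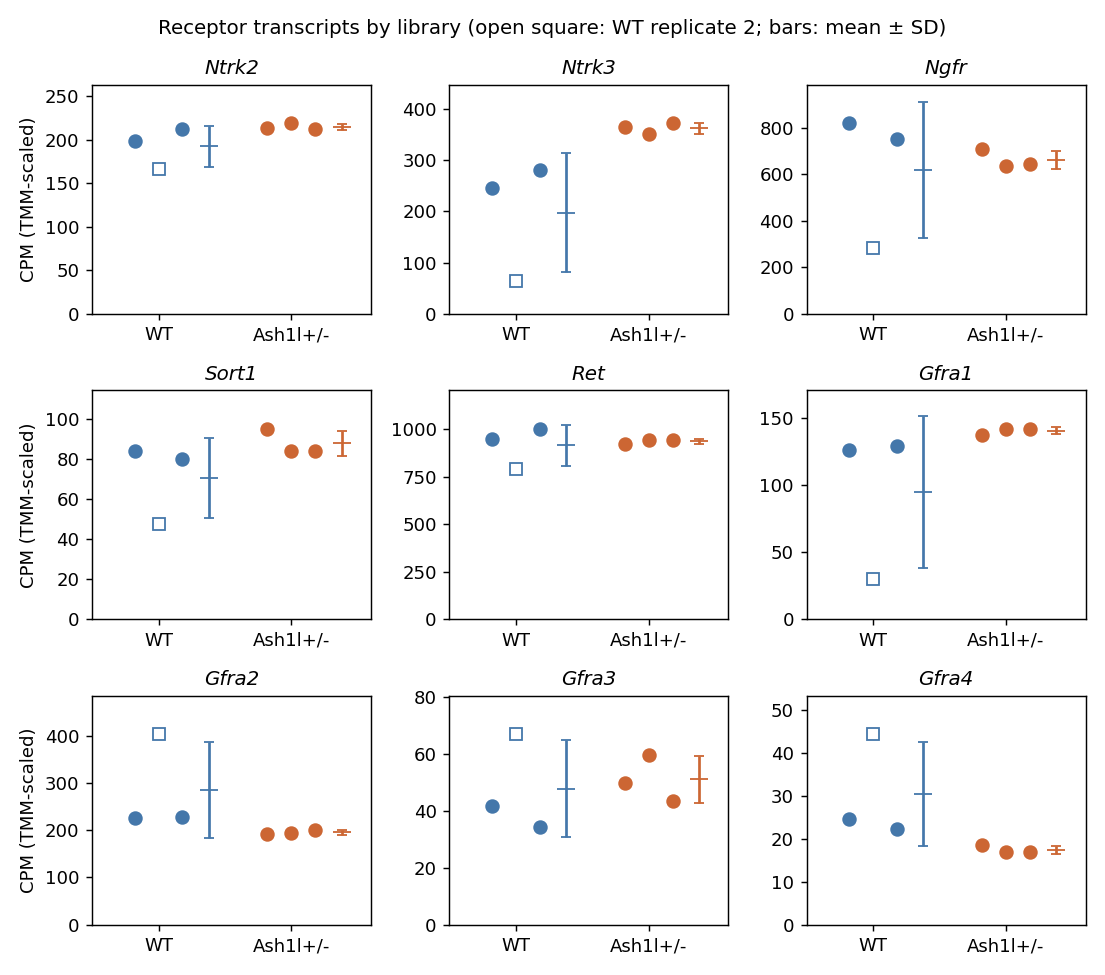
TMM-scaled CPM of each receptor gene in each library, with WT in blue, Ash1l+/- in orange, WT replicate 2 as an open square, and bars showing the mean ± SD of 3 libraries. The 3 Ash1l+/- points lie close together for most genes, while WT replicate 2 lies below both other wild types for Ntrk2, Ntrk3, Ngfr, Sort1, Ret and Gfra1 and above them for Gfra2, Gfra3 and Gfra4.

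Ret encodes the tyrosine kinase shared by all GDNF-family ligands and had the most reads of the 9 genes (chromosome 6, 118151745 to 118197718, minus strand). It was at 921, 946 and 944 CPM in Ash1l+/- replicates 1 to 3 and at 948, 792 and 1004 in WT replicates 1 to 3, with the groups overlapping. Its log2 fold change came to 0.03 (SE 0.15, adjusted p = 0.895) with 6 libraries and -0.06 (SE 0.07, adjusted p = 0.604) with 5. It was -0.05 (SE 0.06, adjusted p = 0.707) with trends removed from the 5. No alternative called Ret in either set of libraries.

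Of the 4 co-receptors, Gfra3 rose and Gfra2 and Gfra4 fell in the 5 libraries, and Gfra1 did not pass. Gfra1, the GDNF co-receptor (chromosome 19, 58235604 to 58455909, minus strand), was at 138, 142 and 142 CPM in Ash1l+/- and 126, 29.8 and 129 in WT. The Ash1l+/- libraries were above all wild types, and WT replicate 2 was 4.28 times below the mean of the others. Log2 fold changes were 0.56 (SE 0.52, adjusted p = 0.534) with 6 libraries, 0.14 (SE 0.07, adjusted p = 0.186) with 5 and 0.14 (SE 0.06, adjusted p = 0.194) with trends removed from the 5, and did not pass.

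Gfra2 encodes the co-receptor for neurturin, found on non-peptidergic nociceptors and low-threshold C fibres (chromosome 14, 70890120 to 70979838, plus strand). It was at 192, 193 and 201 CPM in Ash1l+/- replicates 1 to 3 and at 225, 404 and 228 in WT replicates 1 to 3, so all Ash1l+/- libraries were below all wild types. Its log2 fold change came to -0.55 (SE 0.26, adjusted p = 0.385) with 6 libraries and -0.21 (SE 0.07, adjusted p = 0.0434) with 5. This call was close to the threshold and was lost without any one of WT replicate 1 (adjusted p = 0.175), WT replicate 3 (0.141), Ash1l+/- replicate 2 (0.153) or Ash1l+/- replicate 3 (0.0803), with RLE factors (0.0506), upper-quartile factors (0.0520) or no count filter (0.0508), on both FPKM scales, and with trends removed (log2 fold change -0.08, adjusted p = 0.494). Markers of non-peptidergic neurons (7 of 7) had median log2 differences of 0.03, 0.22 and 0.15 in Ash1l+/- replicates 1, 2 and 3, against -0.24, -0.23 and -0.17 for Gfra2. Their sums were 994 to 1087 CPM in Ash1l+/- and 918 and 1007 in WT replicates 1 and 3. Low-threshold C fibre markers (3 of 4 in the table) had median log2 differences of -0.26, -0.08 and 0.05 in Ash1l+/- replicates 1 to 3. The same median was -0.12 for WT replicate 1 and 0.12 for WT replicate 3. Ash1l+/- replicate 1 alone was thus below both wild types, while Gfra2 was below both in every Ash1l+/- library. Summed, these markers reached 152 CPM in WT replicate 1, 167 in WT replicate 3 and 125 to 162 across the Ash1l+/- libraries. The part of either class in the Gfra2 result was not tested.

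Gfra3 encodes the co-receptor for artemin, carried mainly by peptidergic nociceptors (chromosome 18, 34689903 to 34720387, minus strand). It was at 50.04, 59.7 and 43.6 CPM in Ash1l+/- replicates 1 to 3 and at 41.9, 67.1 and 34.5 in WT replicates 1 to 3. The highest value belonged to WT replicate 2 and the groups overlapped, while WT replicates 1 and 3 lay below all Ash1l+/- libraries. With 6 libraries its log2 fold change was 0.10 (SE 0.28, adjusted p = 0.836). With 5 it was 0.42 (SE 0.12, adjusted p = 0.0153), with an Ash1l+/- mean 1.34 times that of WT replicates 1 and 3, and it was larger with trends removed, at 0.69 (SE 0.11, adjusted p = 7.27e-04). The call in the 5 libraries was lost without WT replicate 3 (0.28, adjusted p = 0.170) or Ash1l+/- replicate 2 (0.30, adjusted p = 0.0994). After removal of the trends it remained when each of the 5 was left out in turn, with log2 fold changes from 0.56 to 0.79 and adjusted p from 2.30e-04 to 0.0231. That last check was added after seeing the data.

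Markers of peptidergic neurons (5 of 5) had summed levels of 1454 to 1573 CPM in Ash1l+/-, of 1303 (replicate 1), 2523 (replicate 2) and 1440 (replicate 3) in WT. At the median these markers differed from the mean of WT replicates 1 and 3 by a log2 of 0.08, 0.22 and 0.18 for Ash1l+/- replicates 1 to 3, with 0.74 for WT replicate 2, where Gfra3 differed by 0.40, 0.65, 0.20 and 0.82. The axon injury list (13 of 13) stood at 0.37, 1.15, 0.80 and 0.90 in the same order. Both lists and Gfra3 were thus highest or next to highest in WT replicate 2 and in Ash1l+/- replicate 2. Between Ash1l+/- replicates 1 and 3 they parted, both lists being higher in replicate 3 and Gfra3 in replicate 1. The injury list summed to 447 to 575 CPM in Ash1l+/- and to 399, 513 and 382 in WT replicates 1 to 3. Their part in the Gfra3 result was not tested.

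Gfra4 encodes the co-receptor for persephin and had the fewest reads of the 9 genes in every library but WT replicate 2 (chromosome 2, 131039632 to 131043088, minus strand). It was at 18.4, 16.8 and 16.9 CPM in Ash1l+/- replicates 1 to 3 and at 24.5, 44.3 and 22.3 in WT replicates 1 to 3. All Ash1l+/- libraries were below all wild types, with WT replicate 2 far above the rest. Its log2 fold change stood at -0.80 (SE 0.29, adjusted p = 0.385) with 6 libraries and -0.43 (SE 0.11, adjusted p = 0.0116) with 5, where the Ash1l+/- mean was 0.742 of that in WT replicates 1 and 3. The call was lost without WT replicate 1 (adjusted p = 0.170) and with trends removed (-0.12, SE 0.10, adjusted p = 0.538).

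The promoters of Ngfr and Gfra4 are shown because these genes fell together in the 5 libraries and both have GC-rich transcripts. Neither gene was called with GC and length trends removed, and Gfra3, whose transcript is also GC-rich, rose in the 5 libraries. Gfra3 was left out of the search for RefSeq windows, so whether it has one was not examined. Among the other receptors, windows were found for Ngfr, Ntrk2, Gfra1 and Gfra4, which are 4 of the 9 genes. There were 5 windows, of which the upstream one of Gfra4 is shown. The windows cover 250 bases before to 50 after a transcript start (build GRCm38.p6). Each is written 5′ to 3′ on the gene's own strand, the minus strand for both, with matches to the GC box GGGCGG or its reverse complement CCGCCC in capitals.
Ngfr, chr11:95587649-95587948: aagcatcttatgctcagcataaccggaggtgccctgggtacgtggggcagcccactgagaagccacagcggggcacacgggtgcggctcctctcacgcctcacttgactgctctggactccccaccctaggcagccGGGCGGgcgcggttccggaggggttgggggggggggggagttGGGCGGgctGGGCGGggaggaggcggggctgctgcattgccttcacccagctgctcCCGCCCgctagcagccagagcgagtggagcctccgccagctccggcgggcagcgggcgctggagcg
Gfra4, chr2:131043039-131043338: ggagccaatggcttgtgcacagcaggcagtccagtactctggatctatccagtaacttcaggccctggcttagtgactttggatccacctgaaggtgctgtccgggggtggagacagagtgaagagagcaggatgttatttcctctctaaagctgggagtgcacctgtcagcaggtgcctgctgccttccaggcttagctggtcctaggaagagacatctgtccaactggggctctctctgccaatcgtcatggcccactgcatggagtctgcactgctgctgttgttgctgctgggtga
The Ngfr window held 4 such matches, none overlapping another, and was 71.7% G or C. The Gfra4 window held 0 and was 55.7% G or C. Among the 32851 RefSeq windows, 35.7% held at least 1 match, and the median GC share was 52.7%. A match describes the letters only, and the absence of one says nothing about a factor.

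Reads of each co-receptor were also set against Ret reads in the same library. The log2 ratio of Gfra1 to Ret was -2.74, -2.73 and -2.73 in Ash1l+/- replicates 1 to 3 and -2.91, -4.73 and -2.96 in WT replicates 1 to 3. Gfra4 to Ret was -5.64, -5.81 and -5.80 in Ash1l+/- and -5.27, -4.16 and -5.49 in WT. Gfra1 thus took more reads per Ret read in all Ash1l+/- libraries than in any wild type, and Gfra4 fewer. For Gfra2 the ratio was -2.26, -2.29 and -2.23 in Ash1l+/- and -2.08, -0.97 and -2.14 in WT, again without overlap. For Gfra3 it was -4.20, -3.99 and -4.44 against -4.50, -3.56 and -4.86, and the groups overlapped. With 5 libraries the mean log2 ratio was higher in Ash1l+/- by 0.20 for Gfra1 and 0.47 for Gfra3 and differed by -0.15 for Gfra2 and -0.37 for Gfra4. Exact permutation p over the 6 ratios computed was 0.1 with all libraries except for Gfra3 to Ret and Ngfr to Sort1 (0.8 each), and 0.2 for every ratio with 5. No ratio could pass a threshold of 0.05 in this design.

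**Figure D3:**
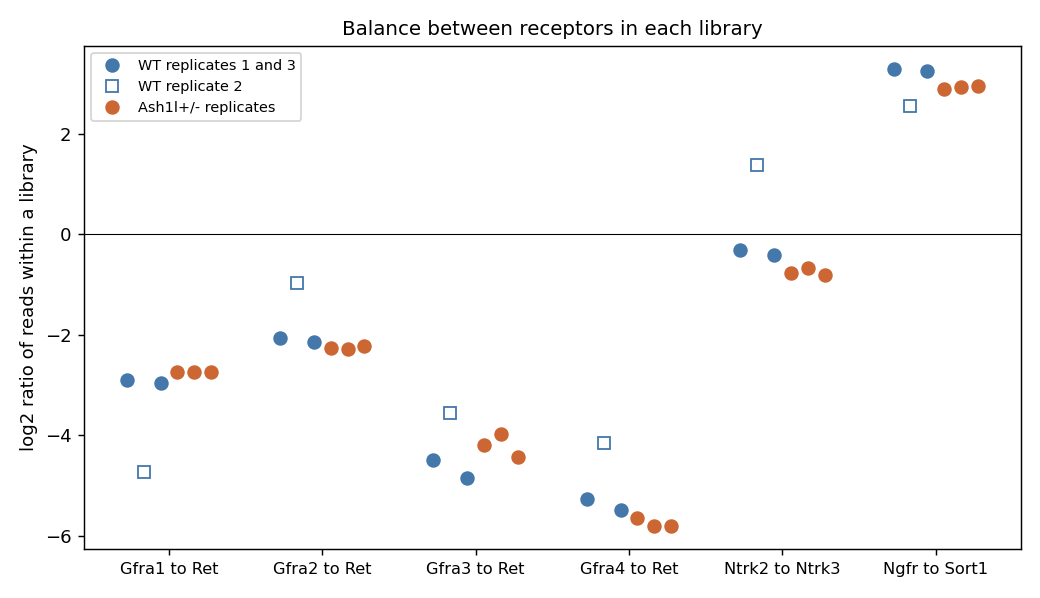
Log2 ratio of reads between pairs of receptor genes within each library, with WT in blue, Ash1l+/- in orange and WT replicate 2 as an open square. Ash1l+/- libraries lie above all wild types for Gfra1 to Ret and below them for Gfra2 to Ret, Gfra4 to Ret and Ntrk2 to Ntrk3, with WT replicate 2 farthest away in each.

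For the levels of the single genes, the same exact permutation test on log2 CPM gave p = 0.1 with 6 libraries for Ntrk2, Ntrk3, Sort1, Gfra1, Gfra2 and Gfra4, the genes whose groups did not overlap. These were 6 of 9, with Ash1l+/- above in 4 and below in 2, and such groups were found in 38.5% of all tested genes (19.3% above and 19.2% below). The exact permutation test gave p = 0.7 for Gfra3 and p = 1 for Ngfr and Ret. With 5 libraries p was 0.2 and the groups did not overlap for any of the 9, above in 5 and below in 4, which held for 49.7% of all genes (24.2% with Ash1l+/- above and 25.5% below).

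Between genes, levels were compared per length, in the FPKM deposited by the authors. Ngfr was highest in the 5 libraries without WT replicate 2, at 189 to 244 FPKM, followed by Ret at 140 to 151 and Gfra2 at 55.8 to 65.8. Gfra1, at 23.5 to 26.5, and Gfra3, at 17.7 to 30.6, overlapped in range. Below them Sort1 (10.8 to 12.9), Ntrk2 (10.5 to 11.6), Ntrk3 (8.31 to 12.6) and Gfra4 (7.95 to 11.6) overlapped over the 5 libraries. Within Ash1l+/- Gfra4, at 8.23 ± 0.44 (SD, n = 3), lay below Sort1, Ntrk2 and Ntrk3 without overlap, while Ntrk3 was last in each wild type. Ntrk2 and Ntrk3 are divided by union lengths of 19292 and 30170 bases that include alternative ends, so FPKM is low for a transcript that uses few of those exons. In WT replicate 2 the order was different from the top down, with Ret at 118, Gfra2 at 115, Ngfr at 82.6 and Gfra3 at 34.1 FPKM. Gfra4 at 20.7, Ntrk2 at 8.72, Sort1 at 6.37, Gfra1 at 5.51 and Ntrk3 at 2.16 FPKM followed.

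**Figure D4:**
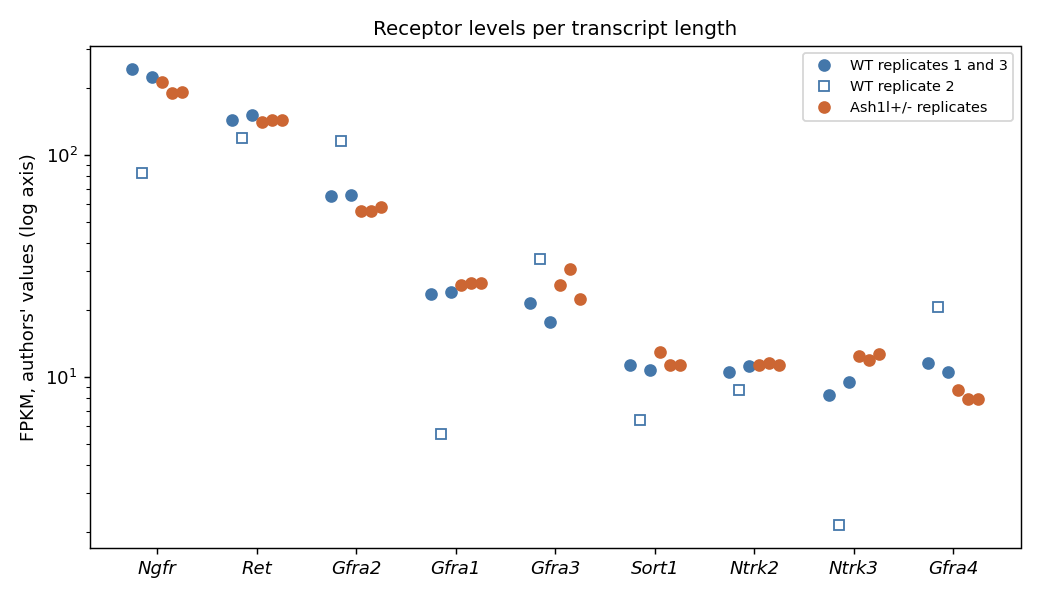
FPKM of each receptor gene in each library on a log axis, ordered by the mean of the 5 libraries without WT replicate 2, with WT in blue, Ash1l+/- in orange and WT replicate 2 as an open square. Ngfr and Ret are highest in the 5 libraries, and WT replicate 2 lies far below them for Ngfr, Gfra1 and Ntrk3.

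Among the ligands described here, Bdnf was the most abundant outside WT replicate 2. Bdnf, a neurotrophin made by sensory neurons themselves, was at 34.7, 33.8 and 34.2 CPM in Ash1l+/- replicates 1 to 3 and at 24.7, 20.8 and 30.4 in WT replicates 1 to 3. The Ash1l+/- libraries were above all wild types. Its log2 fold change was 0.44 (adjusted p = 0.385) with 6 libraries, 0.32 (adjusted p = 0.0391) with 5, and 0.10 (adjusted p = 0.582) with trends removed from the 5. In the 5 libraries its call was also lost in DESeq2 (adjusted p = 0.0537), on log2(FPKM + 1) in limma (0.109) and on log2(FPKM + 0.1) (0.103). It was lost as well without WT replicate 1 (0.17, adjusted p = 0.516), Ash1l+/- replicate 2 (adjusted p = 0.0837) or Ash1l+/- replicate 3 (adjusted p = 0.0802). Nrtn, which encodes neurturin, ranged from 0.824 to 2.49 CPM in the other libraries and stood at 34.2 in WT replicate 2. It did not pass with 6 libraries (adjusted p = 0.385) or 5 (-0.83, adjusted p = 0.126), and passed when Ash1l+/- replicate 3 was also left out of the 5 (-1.37, adjusted p = 0.0220). Ntf3, which encodes neurotrophin-3, ranged from 0.268 to 1.14 CPM and did not pass. Ntf5, Gdnf, Artn and Pspn, which encode neurotrophin-4, GDNF, artemin and persephin, were too low to be tested, with maxima of 0.259, 0.501, 0.374 and 2.47 CPM.

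Of the 70 other genes of these pathways that were listed, 63 were tested. With 6 libraries edgeR called 0 of them, 7 had an unadjusted p below 0.05, and DESeq2 and limma-voom also called 0. With 5 libraries 8 rose, 8 fell and 47 did not pass, with a median log2 fold change of -0.0049. The share called was 25.4%, against 19.8% of all genes and 28.2% of those with a mean of at least 10 CPM. By role, 1 of 4 tested ligands rose; 1 of 13 receptor relatives and modulators rose and 3 fell; 3 of 22 adaptors rose and 3 fell; 1 of 12 partners of p75 rose and 2 fell; and 2 of 12 attenuators rose. With trends removed, 1 rose and 2 fell, 4.76% against 7.16% of all genes. Leaving out WT replicate 1 as well from the 5 left 2 calls, and leaving out Ash1l+/- replicate 2 left 8.

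Among the rises in the 5 libraries, the largest was in Dok6, an adaptor that binds Ret, at 3.71, 5.15 and 3.34 CPM in Ash1l+/- and 1.19, 0 and 2.75 in WT (log2 fold change 1.05, SE 0.31, adjusted p = 0.0205). Cbl, a ubiquitin ligase that turns receptor tyrosine kinases over, was at 117, 115 and 117 CPM against 83.2, 37.3 and 89.1 (0.44, SE 0.08, adjusted p = 7.69e-04). Adam17, a protease that sheds the ectodomain of p75, followed at 0.42, the adaptor Grb10 at 0.34 and the Ras exchange factor Sos1 at 0.32. Of these 5, Cbl was also called with trends removed (0.23, SE 0.06, adjusted p = 0.0320). In each of them the Ash1l+/- libraries were above all wild types, as in 19.3% of all tested genes. These genes were picked as rises, which made this separation likely. With 6 libraries their log2 fold changes were 0.38 for Grb10, 0.50 for Sos1, 0.67 for Adam17, 0.74 for Cbl and 1.59 for Dok6, with adjusted p of 0.385, or 0.408 for Dok6.

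The largest fall was in Bex1, a small protein that interacts with p75, at 4.76, 4.83 and 5.73 CPM in Ash1l+/- replicates 1 to 3 and at 8.89, 46.5 and 8.87 in WT replicates 1 to 3. Its log2 fold change was -0.80 (SE 0.17, adjusted p = 0.00302) with 5 libraries and -0.62 (SE 0.16, adjusted p = 0.0236) with trends removed. Frs3, a docking protein for Trk and Ret, was at -0.68, Rtn4r, a co-receptor that can pair with p75, at -0.63, Islr2, a membrane protein that modulates Trk and Ret, at -0.44, Lingo1, another p75 partner, at -0.39, and the Ret adaptor Dok4 at -0.35. These 5 were not called with trends removed. With 6 libraries Bex1 stood at -2.06, Frs3 at -0.81, Rtn4r at -0.80 and Lingo1 at -0.40 (adjusted p = 0.385 each), Dok4 at -0.18 (0.614) and Islr2 at -0.17 (0.762). In the 5 libraries Cbl and Bex1 were the named pathway genes still called without WT replicate 1, while Dok6, Adam17, Grb10 and Islr2 lost their calls without Ash1l+/- replicate 2, Adam17 without WT replicate 3 and Islr2 without Ash1l+/- replicate 1. With trends removed and a further library left out, Cbl was called in no case and Bex1 only without Ash1l+/- replicate 3. The third gene called with trends removed, named after its value was seen, was the ubiquitin ligase gene Nedd4l at -0.23 (adjusted p = 0.0227), which stood at 0.02 (adjusted p = 0.891) before.

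**Figure D5:**
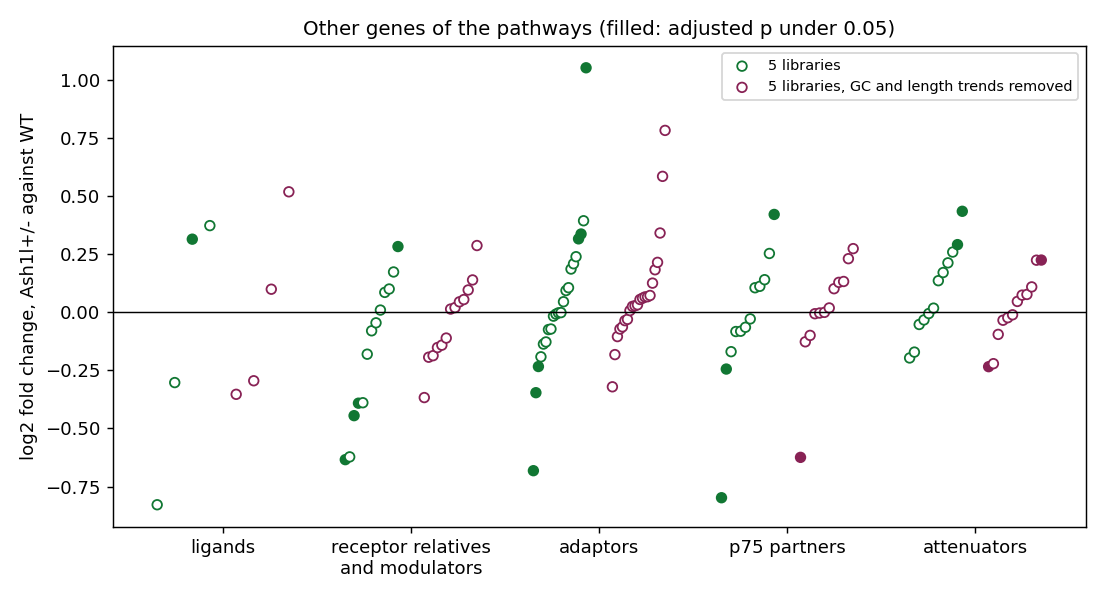
Log2 fold change in Ash1l+/- against WT of each tested gene in 5 groups of other neurotrophin and GDNF pathway genes, with 5 libraries and after removal of GC and length trends; filled points had an adjusted p below 0.05. Rises and falls are equally frequent among the filled points of the 5 libraries, 8 and 8, and 3 filled points remain when trends are removed.

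To find genes alike in pattern, the root mean square difference of centred log2 CPM over all 6 libraries, WT replicate 2 included, was taken between each receptor and 9633 other protein-coding genes with a mean of at least 10 CPM. For every receptor WT replicate 2 lay farthest from the mean of WT replicates 1 and 3. Its log2 differences ran from -2.10 for Gfra1 to 0.92 for Gfra4. Being alike here therefore includes the shift of that library. Ntrk2 was nearest to Ikbkg, Phactr1 and Ddx17, with differences of 0.0221 to 0.0312. Ntrk3 was nearest to Cr1l, Gria4 and Trip11 (0.0588 to 0.0662), Ngfr to Man2b2, Acvr1b and Sobp (0.0367 to 0.0492) and Sort1 to Traf3, Gldn and St3gal1 (0.0257 to 0.0320). The nearest genes to Ret were Abcc5, Kctd3 and Heatr6 (0.0210 to 0.0272). For Gfra1 they were Plekha5, Sv2c and Selenop (0.0515 to 0.0526), for Gfra2 Flot2, Bloc1s5 and Eno1 (0.0201 to 0.0328) and for Gfra4 Adrm1, Mlf2 and Fzr1 (0.0143 to 0.0277). Gfra3 had no gene as close: Ifit3, Pknox1 and Rimklb were nearest at 0.133 to 0.137, against a median of 0.464 over all candidates.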

How the data were processed

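Per the labels' protocols, Trizol was used for extraction and a NEBNext Ultra RNA kit for library preparation. As named, the kit is not a strand-marking one. The authors deposited raw read counts per gene. The tools listed are HISAT2 2.0.5, featureCounts 1.5.0-p3 and the build GRCm38 (mm10), per the submitters' processing notes; no settings are given in the sources used here. The deposited FPKM equal counts over gene length and 1 library size per sample, which is 1.02 to 1.04 times the sum of counts, but 0.750 of it in WT replicate 2. Antisense exons overlapped Sort1 and Gfra1 in GENCODE M21, in genes at 0.111 CPM or less.

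After filterByExpr, counts with TMM factors entered edgeR's quasi-likelihood test (edgeR 4.0.16, R 4.3.3) with a single genotype term, and p-values were adjusted over all genes by Benjamini-Hochberg. All 9 receptors passed the filter. SEs are the log2 fold change over the square root of F. CPM use the factors of the 6 libraries, and marker and receptor differences per library are of log2 CPM with a prior count of 2. For GC and length trends, deviations of log2 CPM in a library were smoothed by loess (span 0.3) against log2 gene length and GC share of the longest GENCODE M21 transcript, both limited to the 1 to 99 percentile range, and the fit became an offset. Alternatives used DESeq2 1.42.0, limma 3.58.1 with voom, library quality weights or log2(FPKM + 1) and log2(FPKM + 0.1), other factors and filters, replicate numbers as a block, and each library left out. edgeR was tested on simulated counts.

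The receptors and lists were chosen with earlier results of these data known. The pathway lists held ligands, receptor relatives and modulators, adaptors, p75 partners and attenuators. Named were all receptors, Ash1l and the ligands (1 of which is not reported here), and the 6 largest rises and falls of pathway genes called in the 5 libraries. Genes alike in pattern were the nearest 3 to each receptor.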

Additional observations from a re-analysis of the deposited data

How the results depend on the processing

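With 6 libraries, 17 of 19 alternatives called 0 receptors, as reported; limma-voom with quality weights, which gave WT replicate 2 a weight of 0.0274, called 5 receptors and 18 pathway genes. Leaving out 1 library gave 0 to 5 receptors and 0 to 16 pathway genes, the higher values without WT replicate 2. With 5 libraries the counts of 5 receptors and 16 pathway genes went to 2 and 6 on log2(FPKM + 1) and on log2(FPKM + 0.1), where Ntrk3 and Gfra4 were called and Ngfr, Gfra2 and Gfra3 were not, and to 1 and 3 with GC and length trends removed. Leaving out a further library, with the trends kept or removed, gave 1 to 5 receptors and 0 to 19 pathway genes; where 1 wild type was left, its spread was taken from the other group. Without the trends removed, 2 receptors were called without WT replicate 1 or Ash1l+/- replicate 2, and 3 without WT replicate 3 or Ash1l+/- replicate 3.

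Directions turned as follows, and the causes were not tested. With 6 libraries Ntrk2 went to -0.49 with trends removed, Ngfr to -0.28 with quality weights, and Ret to -0.042 with quality weights and -0.087 with trends removed. Leave-one-out ranges that crossed 0 were -0.25 to 0.36 for Ngfr, -0.057 to 0.11 for Ret and -0.083 to 0.42 for Gfra3. With 5 libraries Ntrk2 went to -0.19 and Ngfr to 0.046 with trends removed, and ranges over a further library left out were -0.24 to 0.11 for Ntrk2, -0.31 to 0.058 for Ngfr and -0.11 to 0.010 for Ret. Their turned values, all with trends removed and without WT replicate 1, WT replicate 3, Ash1l+/- replicate 1, 2 or 3 in that order, were -0.24, -0.16, -0.18, -0.20 and -0.20 for Ntrk2 and 0.037, 0.057, 0.045, 0.058 and 0.034 for Ngfr; that of Ret was without WT replicate 3.

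The labels do not say that replicate numbers pair samples, and deviations of same-numbered libraries correlated at 0.00052, -0.03 and 0.04 across genes. With the replicate block, 0 receptors and 0 pathway genes were called with 6 libraries and 5 and 20 with 5. The block together with removal of trends called 2 and 4 in the 5, the receptors being Gfra3 (higher) and Ntrk2 (lower), with Ntrk2 at -0.20 and Ngfr at 0.060, and gave Ntrk2 at -0.44 and Ret at -0.086 with 6. Scaling by library totals raised the median log2 fold change of all genes by 0.13 with 6 libraries. Not every library correlated best with its own number. Depth was not limiting for the receptors, whose lowest count was 304 reads, but 4 of 8 ligands were too low to test.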
